A study of Mus musculus with 6 samples.

Results

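The core circadian clock genes Arntl (Bmal1), Clock, Per1, Per2, Per3, Cry1, Cry2, Nr1d1, Nr1d2 and Dbp were followed in liver endothelial cells (ECs) of young and aged mice. They were chosen by name and make up 10 of the 24421 gene symbols in the deposited count table. All 10 were among the 14612 genes that reached 0.5 CPM (read counts brought to a common total with TMM factors) in at least 1 sample and could be tested. None of them passed the main test (edgeR, adjusted p below 0.05) for a difference between aged and young liver ECs. Nor did any other of the 14612 tested genes. Samples of the same age differed widely in most of the 10. Over the 6 samples, Dbp spanned a 79.7-fold range, Nr1d1 a 24.4-fold range and Arntl a 22.5-fold range, whereas Clock spanned only 1.29-fold. The 127-week and the 131-week sample stood at opposite ends of this range for Arntl, Nr1d1, Nr1d2 and Dbp, and the 3 young samples lay between them.

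The cells were CD31+CD45- cells sorted from the livers of C57BL/6J mice of WT genotype, which the study's methods describe as female. The young group held 3 samples (replicates 1, 2 and 3) from mice of 10 weeks, and the aged group held 1 sample each from mice of 127, 131 and 136 weeks. The labels name no treatment. The methods call the 3 samples of an age independent, and the sources used here do not say whether a sample was 1 mouse or a pool, nor at which hour or in which order tissue was collected. The p-values therefore measure the spread between these samples.

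Total counts ran from 23001556 to 31651817 per sample, so that 3 counts stood for at most 0.135 CPM, a limit that covers counting error only. The endothelial markers Pecam1 and Cdh5 were present in all 6 samples, at 1366 to 1635 CPM and at 241 to 469 CPM. Other endothelial markers differed by age. Kdr, Tek, Stab1, Stab2 and Clec4g were lower in every aged than in every young sample, while Lyve1 and Egfl7 overlapped. Stab2 stood at 2902 to 3199 CPM in young and at 504 to 1760 CPM in aged samples. Across age, young replicate 3 and the 127-week sample differed from the other 4 in holding few counts on Lars2 and Rn45s, symbols that collect ribosomal RNA reads, with 1.29% and 0.960% of counts against 4.68% to 5.53%. Values within this pair of libraries and within the other 4 samples are therefore given as well. Between samples of the same age, the chi-square of the counts per degree of freedom was 17.3 for young replicates 1 and 2 and 124 to 159 for the other pairs, and no samples were counted as 1.

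As background, the clock is a feedback loop of transcription that runs in nearly every cell. The proteins of Arntl and Clock bind E-box elements together and activate the Per, Cry, Nr1d and Dbp genes, whose products feed back: PER and CRY proteins block the activators, and the REV-ERB receptors encoded by Nr1d1 and Nr1d2 repress Arntl through ROR elements. In mouse liver, Arntl, Clock and Npas2 transcripts are known to be highest around the end of the night, Dbp and the REV-ERB transcripts during the day, and Per transcripts around dusk, so that the levels of these genes in a single sample depend on the hour at which it was taken.

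RefSeq promoter windows (GRCm38.p6, from 250 bases before a gene's start to 50 after it) were available for 9 of the 10 clock genes and 17 of 23 other pathway genes. Windows of Nr1d1, Ciart, Per3 and Arntl are shown as examples that hold an element, with the matched element in capitals. Their genes moved together, or in the opposite direction, across the 6 samples. Other genes that did so, such as Tef and Nr1d2, are not shown, and another window of Arntl held no element. Nr1d1 holds the E-prime-box CACGTT on its other strand (AACGTG as printed), Ciart, a repressor of the activator pair, holds the E-box CACGTG at 3 places, Per3 holds the D-box TTATGTAA, bound by DBP and its relatives, at 2 places, and Arntl holds the ROR and REV-ERB element TAGGTCA just inside the transcript.
Nr1d1 promoter, chr11:98775328-98775627, minus strand: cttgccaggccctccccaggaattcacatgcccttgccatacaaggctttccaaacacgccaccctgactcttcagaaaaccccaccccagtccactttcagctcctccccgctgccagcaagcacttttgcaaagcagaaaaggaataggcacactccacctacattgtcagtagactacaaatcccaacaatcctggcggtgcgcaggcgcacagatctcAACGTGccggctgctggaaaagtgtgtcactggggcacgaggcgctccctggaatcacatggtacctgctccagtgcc
Ciart promoter, chr3:95882179-95882478, minus strand: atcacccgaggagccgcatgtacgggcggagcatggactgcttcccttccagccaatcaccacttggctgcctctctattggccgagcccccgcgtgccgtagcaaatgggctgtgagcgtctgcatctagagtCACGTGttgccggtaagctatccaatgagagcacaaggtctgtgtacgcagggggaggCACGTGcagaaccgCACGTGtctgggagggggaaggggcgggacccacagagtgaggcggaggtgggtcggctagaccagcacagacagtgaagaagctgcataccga
Per3 promoter, chr4:151044616-151044915, minus strand: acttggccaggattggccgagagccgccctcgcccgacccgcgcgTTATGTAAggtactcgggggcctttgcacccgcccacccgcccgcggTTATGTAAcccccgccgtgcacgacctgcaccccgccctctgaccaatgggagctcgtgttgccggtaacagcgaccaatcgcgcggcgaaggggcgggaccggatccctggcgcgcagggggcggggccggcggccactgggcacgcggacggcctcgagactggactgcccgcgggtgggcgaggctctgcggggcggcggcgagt
Arntl promoter, chr7:113207261-113207560, plus strand: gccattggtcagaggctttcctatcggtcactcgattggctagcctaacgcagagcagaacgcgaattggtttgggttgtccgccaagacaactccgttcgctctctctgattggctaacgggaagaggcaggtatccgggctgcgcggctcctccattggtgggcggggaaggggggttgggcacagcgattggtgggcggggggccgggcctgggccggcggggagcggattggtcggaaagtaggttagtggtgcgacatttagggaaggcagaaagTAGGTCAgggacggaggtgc
Relative to the start, the Nr1d1 element begins at -28, those of Ciart at -116, -58 and -44, those of Per3 at -205 and -158, and that of Arntl at 30. Both strands were also searched for the other D-box form TTACGTAA and for the cAMP response element TGACGTCA, and the matches shown do not overlap. Of all 32851 promoter windows, 7.15% held CACGTG, 4.68% CACGTT and 11.4% either of these. The D-box TTATGTAA was held by 0.938% and its other form by 0.119%, the ROR and REV-ERB element by 2.61% and the cAMP response element by 1.79%. Of the 13 windows of clock genes, 4 held CACGTG or CACGTT, in Per1, Cry1, Cry2 and Nr1d1, while the windows of Dbp, Clock and Nr1d2 held none of the 6 elements. These matches describe letters in a window and not binding.

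The activators Arntl and Clock differed in how far samples lay apart. Arntl (chr7:120350979-120457636 on mm9) stood at 44.3, 24.9 and 14.6 CPM in the young samples (replicates 1 to 3) and at 87.4, 3.89 and 17.8 CPM in the aged samples (127, 131 and 136 weeks, the order used throughout). The highest and the lowest sample were thus both aged, and the 3 young samples and the 136-week sample fell between them. Mean CPM was 27.9 ± 15.1 (SD, n = 3) in young and 36.4 ± 44.7 (SD, n = 3) in aged ECs. The log2 fold change of aged against young was 0.38 (SE 0.95, edgeR adjusted p = 0.924), and without the 127-week sample it was -1.36. Clock (chr5:76639992-76733817), which encodes the partner of the Arntl protein, stood at 54.4, 56.6 and 45.9 CPM in the young samples and at 59.3, 47.8 and 50.4 CPM in the aged samples. All 6 values lay close together and the ages overlapped, with a log2 fold change of 0.0058 (SE 0.15, edgeR adjusted p = 0.993) that was below 0 without young replicate 3 (-0.080) or without the 127-week sample (-0.087).

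**Figure D1:**
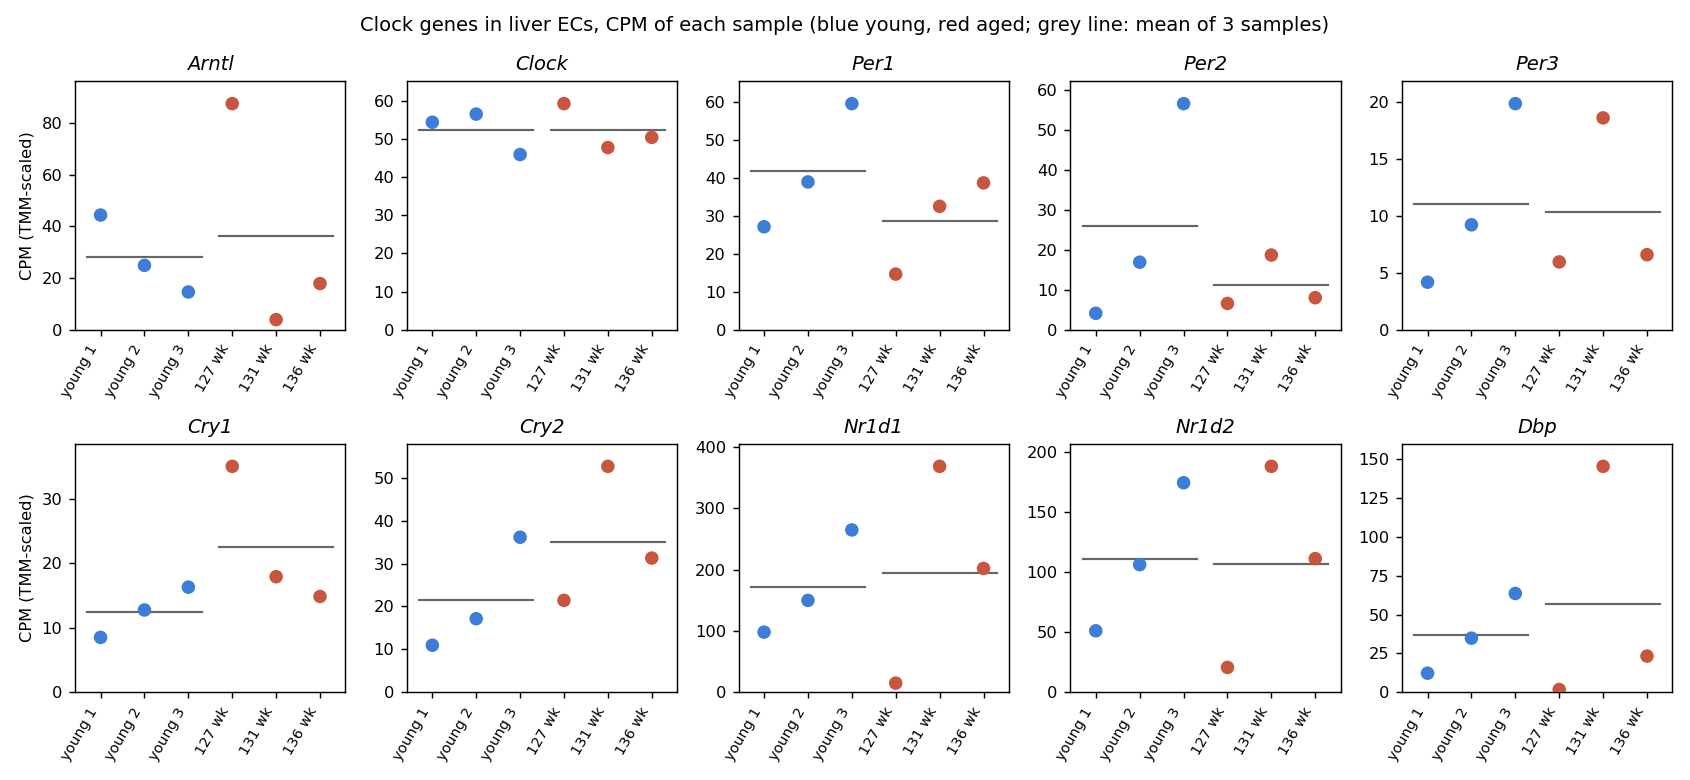
CPM (vertical axis, TMM-scaled, from 0) of the 10 clock genes in each of the 6 liver EC samples (horizontal axis), with blue points for young, red points for aged samples and a grey line for the mean of the 3 samples of an age. The 127-week sample is highest for Arntl, Clock and Cry1 and lowest for Per1, Nr1d1, Nr1d2 and Dbp, and the ages overlap in every panel.

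Of the 5 Per and Cry genes, whose proteins form the repressor complex of the clock, none passed the test, as no tested gene did. The 3 Per genes were all highest in young replicate 3. Per1 (chr11:68908719-68923462) stood at 27.1, 38.9 and 59.6 CPM in young and at 14.7, 32.5 and 38.7 CPM in aged samples. Per2 (chr1:93312561-93355907) stood at 4.09, 16.9 and 56.5 CPM in young and at 6.57, 18.7 and 8.0 CPM in aged samples. Young replicate 3 was thus far above all other samples for Per2, and young replicate 1 was the lowest of all 6. Per3 (chr4:150377761-150418774) stood at 4.17, 9.21 and 19.8 CPM in young and at 5.95, 18.6 and 6.58 CPM in aged samples, so that young replicate 3 and the 131-week sample were the 2 highest. The log2 fold changes were -0.55 (SE 0.41) for Per1, -1.22 (SE 0.85) for Per2 and -0.097 (SE 0.64) for Per3, with edgeR adjusted p of 0.638, 0.613 and 0.975. That of Per1 was -0.20 without young replicate 3, -0.23 without the 127-week sample and -0.83 without the 136-week sample. The value of Per2 rested on young replicate 3, since without it the log2 fold change was 0.082, and that of Per3 was 0.64, 0.18 and 0.15 without young replicate 3, the 127-week and the 136-week sample.

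The Cry genes had the highest fold changes among the 10, but neither passed the test. Cry1 (chr10:84594447-84647799) stood at 8.52, 12.8 and 16.3 CPM in young and at 35.0, 17.9 and 14.9 CPM in aged samples. The 127-week sample was well above the rest and the 136-week sample lay among the young. Its log2 fold change of 0.85 (SE 0.38) had the smallest adjusted p of the 10 genes, 0.417 in edgeR, with an unadjusted p of 0.0588. The unadjusted p of Cry1 was 0.0361 in DESeq2 (adjusted p = 0.274). In edgeR with a library pair term it was 0.0114 (adjusted p = 0.231). Cry2 (chr2:92243803-92274200) stood at 11.0, 17.2 and 36.1 CPM in young and at 21.4, 52.6 and 31.3 CPM in aged samples. Young replicate 3 was above 2 of the 3 aged samples, and the log2 fold change was 0.71 (SE 0.49, edgeR adjusted p = 0.606). It was 0.30 without the 131-week sample and 1.32 without young replicate 3, and that of Cry1 was 0.39 without the 127-week sample. Of the exon bases of Cry2, 4.67% overlap a gene on the opposite strand, and whether counting used the strand is not given in the sources used here.

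The REV-ERB genes Nr1d1 and Nr1d2, which encode the heme-binding receptors that repress Arntl, were high in the samples in which Arntl was low. Nr1d1 (chr11:98629246-98636647) stood at 98.2, 150.0 and 264.8 CPM in young and at 15.1, 368 and 202 CPM in aged samples. The 127-week sample held the least Nr1d1 and the 131-week sample the most. Nr1d2 (chr14:19036568-19071641) stood at 51.3, 106.3 and 175 CPM in young and at 20.8, 188 and 111 CPM in aged samples, again with these 2 aged samples at the ends. Mean CPM of Nr1d1 was 171 ± 85.3 (SD, n = 3) in young and 195 ± 177 (SD, n = 3) in aged ECs, with a log2 fold change of 0.19 (SE 0.91, edgeR adjusted p = 0.961). That of Nr1d2 was 110.7 ± 61.7 (SD, n = 3) and 106.8 ± 83.8 (SD, n = 3), with a log2 fold change of -0.053 (SE 0.73, edgeR adjusted p = 0.986). The log2 fold change of Nr1d1 was -0.66 without the 131-week sample and -0.087 without young replicate 1, and that of Nr1d2 was 0.44 without either the 127-week sample or young replicate 3. Of the exon bases of Nr1d1, 8.42% overlap Thra on the opposite strand.

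Dbp, which encodes a PAR bZIP transcription factor that carries the rhythm to output genes, varied most of the 10. Dbp (chr7:52960458-52965525) stood at 12.3, 34.8 and 63.6 CPM in young and at 1.82, 145 and 23.3 CPM in aged samples. The 127-week sample was below and the 131-week sample above all young samples, and the 136-week sample lay among the young. Mean CPM was 36.9 ± 25.7 (SD, n = 3) in young and 56.8 ± 77.4 (SD, n = 3) in aged ECs, and the log2 fold change was 0.62 (SE 1.22, edgeR adjusted p = 0.893). Without the 131-week sample it was -1.56. Of the exon bases of Dbp, 16.7% overlap Sphk2 on the opposite strand.

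Counted over the 10 genes, 6 had a log2 fold change above 0 and 4 below, with a median of 0.098. Over all 14612 tested genes, 7462 were above and 7150 below 0, with a median of 0.0098. With edgeR, the number called was 0 of 10 at an adjusted and 0 of 10 at an unadjusted p below 0.05. At an adjusted p below 0.05 it was 0 of 10 with DESeq2 and 0 of 10 with limma-voom. Over all tested genes, edgeR called 0% at an adjusted and 12.6% at an unadjusted p below 0.05. At an adjusted p below 0.05, DESeq2 called 4.58% and limma-voom called 0 of all tested genes. In none of the 10 were all aged samples above or below all young samples, while this was so in 17.9% of all tested genes. The standard errors, up to 1.22 on the log2 scale for Dbp, leave room for differences of either sign. With another test, scale, filter or library term the direction turned in 5 of the 10 (Arntl, Clock, Per3, Nr1d1 and Dbp), and only Per1, Cry1 and Cry2 kept theirs in every alternative. In FPKM, a level per transcript length, Nr1d1 was highest of the 10 (mean over all 6 samples 68.6), followed by Dbp (34.1), Nr1d2 (23.6) and Arntl (11.4). The others lay between 1.66 for Per3 and 7.51 for Cry2, and in 0 of the 9 pairs of neighbours in this order did the difference of the means exceed the larger SD over the 6 samples.

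The samples stood in much the same order in many of these genes. Both young replicate 1 below 2 below 3 and 127-week below 136-week below 131-week held for Per2, Per3, Cry2, Nr1d1, Nr1d2 and Dbp, 6 of the 10 clock genes, and for 5 of 22 other pathway genes tested (Tef, Hlf, Bhlhe41, Ciart and Wee1), against 1.44% of all tested genes. Arntl had exactly the reverse order, which 1.35% of all tested genes had. The orders were chosen after the values were seen, so that these counts describe the samples and test nothing. Among the 10 clock genes the 127-week sample held 3 of the highest and 4 of the lowest values, and the 131-week sample held 4 of the highest and 1 of the lowest. In the young group, replicate 3 held 3 of the highest and 1 of the lowest, and replicate 1 held 4 of the lowest. Young replicate 2 and the 136-week sample held none of either.

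Genes known to peak around the end of the night (Arntl, Clock and Npas2) were set against genes known to peak later in the day (Dbp, Nr1d1, Nr1d2, Per3, Tef and Ciart), as the difference of their mean log2(CPM + 1), each gene centred on its mean over the 6 samples. This difference was 1.38, -0.064 and -1.61 in the young samples and 3.47, -2.57 and -0.60 in the aged samples. The 127-week sample was thus the highest and the 131-week sample the lowest, and the 3 young samples and the 136-week sample lay between them. The SD was 1.5 (n = 3) in young and 3.08 (n = 3) in aged ECs, and the aged mean exceeded the young mean by 0.20. Within the pair of libraries with few Lars2 and Rn45s counts the aged sample was higher by 5.08, and within the other 4 samples the difference of aged minus young was -2.25. Arntl and Dbp showed the same contrast in a ratio, with 48.0 Arntl counts for each Dbp count in the 127-week sample and 37.4 Dbp counts for each Arntl count in the 131-week sample. In young replicate 1 the ratio of Arntl to Dbp was 3.60, in young replicate 3 it was 0.229, and in young replicate 2 and the 136-week sample it was 0.714 and 0.765. The hour of collection was not given for any sample, so that its part in these values was not tested and cannot be told apart from other differences between samples. In bulk samples, a change in the share of cells of a type and a change in RNA per cell cannot be told apart either.

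**Figure D2:**
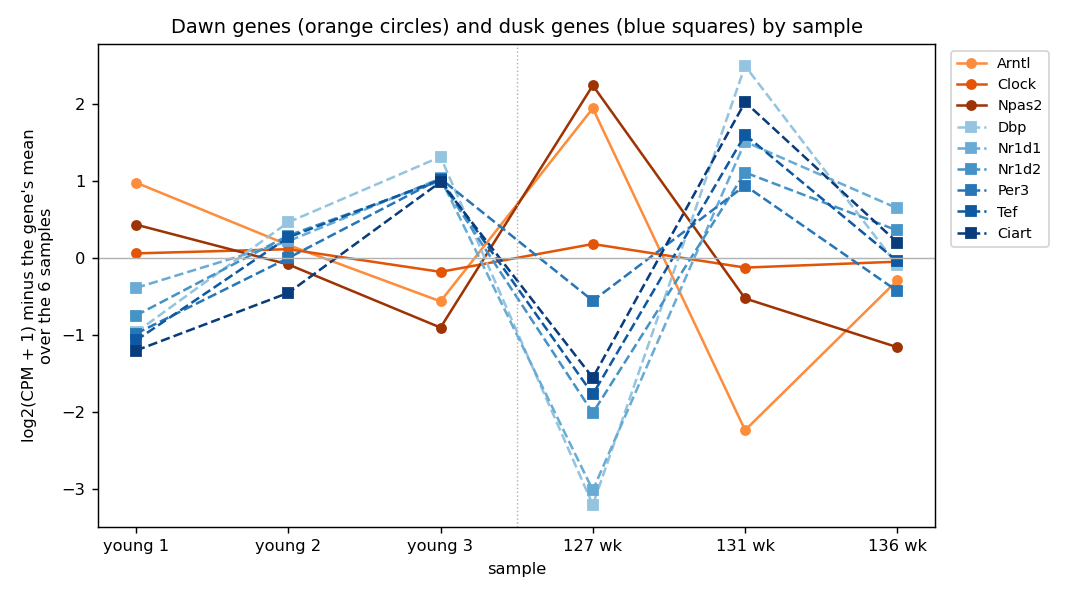
log2(CPM + 1) minus the gene's mean over the 6 samples (vertical axis) in each sample (horizontal axis), for 3 genes known to peak around dawn (orange circles, solid lines) and 6 genes known to peak later in the day (blue squares, dashed lines). Arntl and Npas2 are highest and all of the later group but Per3 lowest in the 127-week sample, and in the 131-week sample the later group is high and Arntl is at its lowest, while Clock stays near 0 throughout.

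How far samples of the same age lay apart was ranked over all 14612 tested genes by the SD of log2(CPM + 1) within the ages, a measure chosen after the values were seen. Dbp ranked 27th with an SD of 2.17, Nr1d1 36th, Arntl 48th, Per2 86th and Nr1d2 98th. Of the 10 clock genes, 8 lay in the top 10% of spread, which by its making holds 10.0% of all tested genes, and the exceptions were Cry1 at rank 1962 and Clock at rank 11932 with an SD of 0.16. The median SD of the 10 was 1.12, against 0.274 over all tested genes. The spread was present among the young samples alone, where Per2 ranged 13.8-fold, Dbp 5.16-fold, Per3 4.76-fold, Nr1d2 3.40-fold, Cry2 3.29-fold and Arntl 3.04-fold. Nr1d1 ranged 2.70-fold, Per1 2.2-fold, Cry1 1.91-fold and Clock 1.23-fold there, and the median of the 10 was 3.17-fold, against 1.43-fold over the 14088 tested genes with counts in every young sample.

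**Figure D3:**
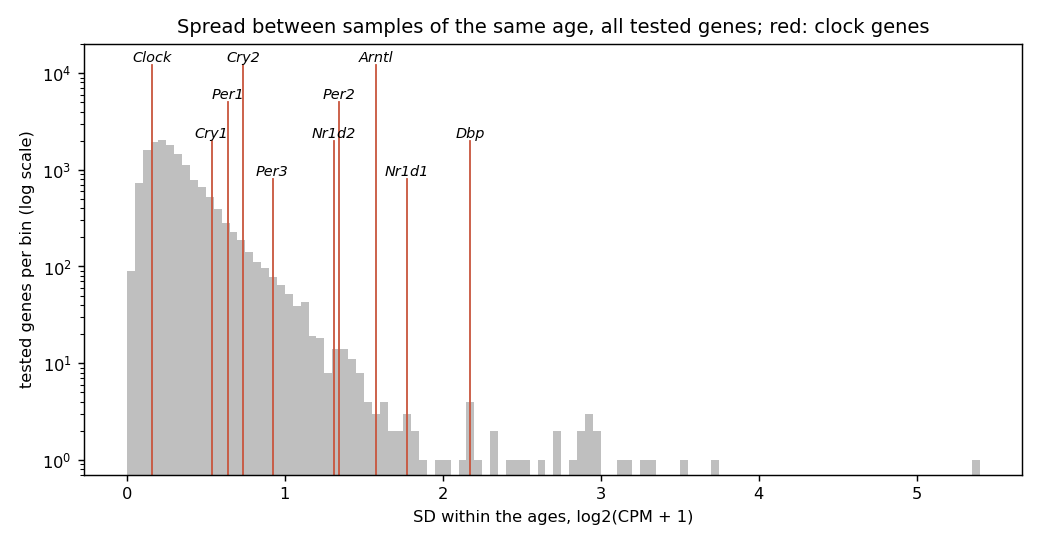
Number of tested genes (vertical axis, log scale) by the SD of log2(CPM + 1) between samples of the same age (horizontal axis), with red lines for the 10 clock genes. Dbp, Nr1d1, Arntl, Per2 and Nr1d2 lie in the far right tail, and Clock lies among the bulk of genes.

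The tested genes most like Dbp over the 6 samples, by the root mean square difference of profiles centred on their own mean, were Nr1d1 (0.58 on the log2 scale), Tef (0.71), Nr1d2 (0.79), Ciart (0.82) and Mt2 (1.00), a metallothionein gene. Of 14612 tested genes Hlf was the 6th, Per3 the 12th, Per2 the 14th, Per1 the 23rd and Arntl only the 14590th in this order. For Arntl the nearest genes were Cyp2c29 (0.84), H2-Q10 (0.84), Npas2 (0.84), Ackr1 (0.88) and Kcnj14 (0.89). Of the other clock genes, Clock was the 1238th and Cry1 the 6193rd in this order, and the remaining 7 lay at its far end, from Per1 at the 14351st to Dbp at the 14608th place. Cyp2c29 (0.156 to 2.79 CPM) and Kcnj14 (0.194 to 2.44 CPM) were low in every sample, where adding 1 CPM flattens a profile. The measure also depends on how far a gene varies, so that a flat profile such as that of Clock can rank ahead of others. With only 6 samples, this likeness describes these samples and no more.

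Of 23 other genes of the clock pathway, grouped by role, 22 could be tested. None passed edgeR's adjusted p, as no tested gene did. At an unadjusted p below 0.05, Nfil3, Ccrn4l, Bhlhe40, Usp2, Rora and Nampt were higher in aged ECs, 6 of 22 genes, and none was lower, against 8.32% of all tested genes higher and 4.32% lower. In 6 genes every aged sample was above every young sample and in 1, Btrc, below, against 9.62% and 8.33% of all tested genes. The median log2 fold change of the 22 was 0.52, with 18 above and 4 below 0. Over all tested genes the median was 0.0098, with 7462 above and 7150 below 0. DESeq2 called 4 of the 22 at an adjusted p below 0.05 (Nfil3, Ccrn4l, Bhlhe40 and Usp2), where it called 4.58% of all tested genes, so that these calls depend on the test. Arntl2 held between 0 and 18 counts, and Rorb held no counts in any young sample and was not tested.

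Nfil3, which encodes the repressor that competes with DBP for D-boxes and which holds TAGGTCA on the other strand of its window at -12, stood at 10.3, 7.94 and 5.43 CPM in young and at 34.7, 15.1 and 54.7 CPM in aged samples. All aged samples were above all young samples, and the log2 fold change was 2.14 (SE 0.47, edgeR unadjusted p = 0.00244, adjusted p = 0.232, DESeq2 adjusted p = 0.000625). Bhlhe40, a repressor that binds E-boxes, stood at 166, 290.1 and 224 CPM in young and at 395, 612 and 1029 CPM in aged samples, with a log2 fold change of 1.58 (SE 0.37, edgeR adjusted p = 0.235, DESeq2 adjusted p = 0.00224). Ccrn4l (Nocturnin), whose transcript cycles in liver, stood at 8.0, 12.0 and 10.7 CPM in young and at 19.5, 28.3 and 88.2 CPM in aged samples, with a log2 fold change of 2.15 (SE 0.55, edgeR adjusted p = 0.249, DESeq2 adjusted p = 0.00333). For Bhlhe40 and Ccrn4l the 136-week sample was the highest by a wide margin, and without it the log2 fold changes were 1.15 and 1.23. Usp2, a deubiquitinase, ranged from 3.75 to 4.35 CPM in the young samples and from 6.53 to 11.7 CPM in the aged (log2 fold change 1.09, edgeR adjusted p = 0.254, DESeq2 adjusted p = 0.0323).

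Rora, which encodes the receptor that activates Arntl at the element REV-ERB proteins also bind, stood at 32.8, 38.1 and 39.9 CPM in young and at 51.7, 48.7 and 62.9 CPM in aged samples. The ages did not overlap and lay close within themselves, with a log2 fold change of 0.56 (SE 0.16, edgeR adjusted p = 0.256, DESeq2 adjusted p = 0.0787). Nampt, the rate-limiting enzyme of NAD salvage, ranged from 79.1 to 102.5 CPM in young and from 103.1 to 139.3 CPM in aged samples, with a log2 fold change of 0.41 (edgeR adjusted p = 0.386). Npas2, which can take the place of Clock, stood at 4.95, 3.16 and 1.36 CPM in young and 19.8, 2.06 and 0.975 CPM in aged samples. Like Arntl, Npas2 fell across the young replicates and was highest in the 127-week sample. Unlike Arntl, Npas2 was lowest in the 136-week sample. Its log2 fold change of 1.28 (SE 1.06, edgeR adjusted p = 0.685) was -1.05 without the 127-week sample. Tef and Hlf, the PAR bZIP relatives of Dbp, moved with Dbp. Tef stood at 45.9, 117 and 198 CPM in young and 27.9, 297 and 94.5 CPM in aged samples (log2 fold change 0.21, SE 0.82, edgeR adjusted p = 0.951), and its log2 fold change was -0.98 without the 131-week sample and -0.17 without young replicate 1. Hlf stood at 7.30, 10.3 and 22.7 CPM in young and 6.67, 39.4 and 10.0 CPM in aged samples, with a log2 fold change of 0.47 (SE 0.71, edgeR adjusted p = 0.850) that was -0.69 without the 131-week sample.

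**Figure D4:**
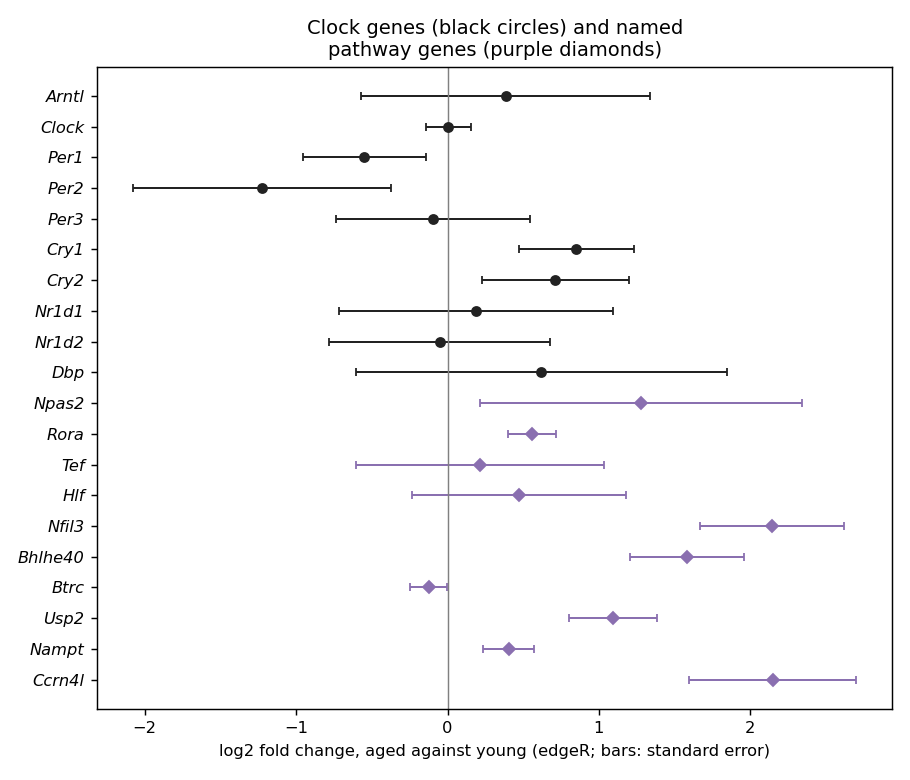
log2 fold change of aged against young liver ECs (horizontal axis, edgeR, bars are 1 standard error) for the 10 clock genes (black circles) and 10 other clock pathway genes chosen by the rule for named genes (purple diamonds). The bars of Arntl, Clock, Per3, Nr1d1, Nr1d2, Dbp, Tef and Hlf include 0. Per1, Per2 and Btrc lie to the left of 0 by more than their bars. Cry1, Cry2, Npas2, Nfil3, Bhlhe40, Ccrn4l, Usp2, Rora and Nampt lie to the right by more than theirs. A bar of 1 standard error is not a test.

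Within the pair of libraries with few Lars2 and Rn45s counts, the 127-week sample minus young replicate 3 gave differences in log2(CPM + 1) opposite in sign to those within the other 4 samples for 9 of the 10 clock genes, against 33.2% of all tested genes. The difference was 2.51 within the pair and -1.84 within the others for Arntl, -4.05 and 1.16 for Nr1d1, -3.01 and 0.96 for Nr1d2, and -4.52 and 1.45 for Dbp. Cry1 was the exception, at 1.06 and 0.60. For Clock the values were 0.36 and -0.17, for Per1 -1.95 and 0.12, for Per2 -2.93 and 0.48, for Per3 -1.58 and 0.75, and for Cry2 -0.73 and 1.5. No label names this pair, which was set apart by these counts only and holds 1 sample of each age, and its part in the clock values was not tested further. For Nfil3 the values were 2.47 and 1.57, for Bhlhe40 0.82 and 1.85, for Ccrn4l 0.81 and 2.24, and for Rora 0.37 and 0.63. In these genes every aged sample was above every young sample, so that both values had to be above 0.

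Several gene lists that could move with the clock genes were measured in the same samples. Of 6 genes induced by glucocorticoids, which also induce Per1 and Per2, Fkbp5 stood at 63.1, 120.8 and 277 CPM in young and at 77.2, 80.6 and 78.6 CPM in aged samples, and Zbtb16 at 3.28, 6.23 and 47.2 CPM in young and 1.55, 3.54 and 6.13 CPM in aged samples. Both were thus highest in young replicate 3, as the Per genes were, but the rest of the list was not. Tsc22d3, Klf9 (208 CPM) and Ddit4 (71.7 CPM) were highest in young replicate 2, and Sgk1 (2671 CPM) in the 131-week sample. Tsc22d3 stood at 418, 607 and 510 CPM in young and at 198, 333 and 225 CPM in aged samples, lower in every aged sample (edgeR adjusted p = 0.235). The sum of the 6, which is mostly Sgk1, was 2791 to 3175 CPM in young and 2198 to 3319 CPM in aged samples. None of the 6 passed edgeR's adjusted p, as no tested gene did, and 5 had a fold change below 0. Of 10 immediate early genes, which like Per1 respond within minutes to stimulation and to tissue digestion, 9 had a fold change above 0 and none passed the adjusted p, with sums of 18932 to 22755 CPM in young and 21380 to 28264 CPM in aged samples. The sum of 6 temperature-responsive genes was 2497 to 2990 CPM in young samples and 1252, 4772 and 3540 CPM in the aged samples. Hspa1a and Hspa1b, which make up most of this sum, were lowest in the 127-week and highest in the 131-week sample, while Rbm3 and Dnajb1 were highest in the 136-week sample. The part of these genes in the clock values was not tested.

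Markers of other cells differed between the aged samples as well. The 10 leukocyte markers summed to 35.6 to 75.3 CPM in young samples and to 171, 28.4 and 434 CPM in the aged samples, with Ptprc, which encodes CD45, between 1.17 and 25.6 CPM and 2 of the 10 at 0 in some sample. The 136-week sample, with the most leukocyte markers and the highest Bhlhe40, Nfil3 and Ccrn4l, lay among the young samples for Dbp, Nr1d1 and Arntl. Dbp and Nr1d1 were lowest in the 127-week sample, which was next in leukocyte markers. They were highest in the 131-week sample, which held the fewest. The 7 hepatocyte markers summed to 100.4 to 169 CPM in young and 79.8 to 91.9 CPM in aged samples, the 6 stellate and mural cell markers to 107 to 358 CPM and 184 to 627 CPM, and the 3 cholangiocyte markers to 5.90 to 21.1 CPM and 16.4 to 21.6 CPM. None of the hepatocyte, stellate or cholangiocyte markers was at 0 in any sample. The 9 endothelial markers summed to 17177 to 19104 CPM in young and 9398 to 13340 CPM in aged samples. Of the 9, 5 were lower and none higher in every aged sample than in every young sample. This was so in 8.33% (lower) and 9.62% (higher) of all tested genes. The part of all these markers in the values of the clock and pathway genes was not tested.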

How the data were processed

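RNA of sorted liver ECs was prepared with a TruSeq kit and read as 75-base single ends on an Illumina sequencer. The submitters' processing notes and the study's methods name CASAVA 1.8.2 for base calling, TopHat 2.1.0 for mapping to mm9 and Cuffnorm 2.2.1 for FPKM. The authors deposited raw counts for each gene symbol and, in another table, FPKM values that Cuffnorm had scaled between samples. The counting program, the annotation and the use of strand are not given in the sources used here, so that genes overlapping on opposite strands are uncertain.

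Genes with at least 0.5 CPM by total counts in at least 1 sample entered edgeR 4.0.16 (R 4.3.3). TMM factors and edgeR's quasi-likelihood test of 3 aged against 3 young samples were used. Benjamini-Hochberg adjustment ran over all 14612 tested genes, with a threshold of 0.05. The members and lists were chosen with earlier results of these data known, so that no test was run over a list. Named in the text are all 10 members, the pathway genes whose ages did not overlap or whose unadjusted p was below 0.05, Npas2, Tef, Hlf and Nfil3, and the 5 genes most like Arntl and most like Dbp. Other genes are named only where a list or a sample order is described. The rank of within-age spread, its alternatives and the sample orders were chosen after the values were seen. Alternatives used DESeq2 1.42.0, limma-voom and limma 3.58.1 on log2(FPKM + 1) or log2(FPKM + 0.1), other filters and scalings, a library pair term and the removal of each sample. The edgeR and DESeq2 tests were tested on simulated data. Gene positions are those of GENCODE on mm9, and promoters those of RefSeq on GRCm38.p6, and no coordinate was converted between them. Other assays of the study were not analysed here. One pathway gene counted in the lists is not reported here by itself.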

Additional observations from a re-analysis of the deposited data

How the results depend on the processing

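No clock gene was called at an adjusted p below 0.05 under any of the alternatives run. Of 150 alternative fold changes of the 10 genes, 121 kept their direction and 29 turned it. Over all genes edgeR called 0, limma-voom 0, DESeq2 669, edgeR without a filter 4 and limma on log2(FPKM + 0.1) 1. With a library pair term edgeR called 2, and an unadjusted p gave 1847. With a sample left out the count was 0 to 1, the 1 being without the 131-week sample. Of the other pathway genes, DESeq2 called 4 and an unadjusted p 6, where edgeR called 0. With limma-voom the log2 fold change was -0.39 for Arntl, -0.59 for Nr1d1, -0.81 for Dbp and -0.15 for Tef. On log2(FPKM + 1) it was -0.29 for Arntl, -0.00037 for Clock, -0.57 for Nr1d1, -0.46 for Dbp and -0.13 for Tef, and on log2(FPKM + 0.1) it was -0.44, -0.00062, -0.63, -0.64 and -0.16. With the library pair term it was -0.44 for Arntl, 0.073 for Per3 and -0.16 for Nr1d1. For Clock it was -0.0026 with DESeq2 size factors, -0.0021 with DESeq2 and -0.0015 without a filter. With a sample left out, the log2 fold change ran from -1.36 to 0.92 for Arntl, from -0.087 to 0.070 for Clock, from -1.83 to 0.082 for Per2, from -0.82 to 0.64 for Per3, from -0.66 to 0.74 for Nr1d1, from -0.75 to 0.44 for Nr1d2, from -1.56 to 1.27 for Dbp, from -1.05 to 1.8 for Npas2, from -0.98 to 0.78 for Tef and from -0.69 to 1.09 for Hlf. It kept its direction for Per1 (-0.83 to -0.20), Cry1 (0.39 to 1.09) and Cry2 (0.30 to 1.32). The cause of these turns was not tested. The difference of the dawn and dusk genes between the ages was 0.20, ran from 0.19 to 0.21 on other scales, was 0.15 from Arntl and Dbp alone, and from -1.49 to 1.53 with a sample left out. The number of clock genes in the top 10% of spread was 6 on log2(CPM + 0.1), 8 on the other scales and 7 to 9 with a sample left out. No paired analysis was possible because the labels number only the young samples.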
